A study of Mus musculus with 4 samples.

Results

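Immediate-early genes and the feedback genes of NF-kB were examined in mouse bone marrow (BM) macrophages that had engulfed dying prostate cancer cells. The group holds 38 genes, chosen by symbol from the 31053 genes of the count matrices, and all 38 passed the filter on low counts that left 13869 genes in the test. Of the 38 genes, 26 were lower in efferocytic than in non-efferocytic BM macrophages and 0 were higher, at an adjusted p under 0.05 with edgeR, while 19.0% of all genes tested were lower and 19.9% were higher. The median log2 fold change was -0.60 over the 38 genes and -0.02 over all genes tested. At an unadjusted p under 0.05, 28 of the genes were lower, against 24.4% of genes tested, and 1 (Jun) was higher, against 24.8%. DESeq2 called 25 lower, against 10.2% of genes, and 1, Jun, higher, against 14.2%. Efferocytic cells held more UMIs per cell, and the counts depended on how this was treated: per cell instead of per 1000000 UMIs, 11 of the genes were lower, against 4.23% of all genes tested, and 4 were higher, against 49.9%.

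Immediate-early genes are transcribed within minutes of a stimulus from promoters that are ready beforehand, without new protein synthesis. They encode transcription factors such as FOS, JUN and EGR1, and also proteins that end the response, among them the phosphatases that switch off MAP kinases (DUSP) and the ZFP36 proteins, which bind AU-rich elements of mRNA and lead it to decay. NF-kB dimers are held in the cytoplasm by IkB proteins until the IKK complex marks these for destruction, and NF-kB then induces its own inhibitors, such as Nfkbia and Tnfaip3, so that the response limits itself. In macrophages both programs are known for their answer to microbes, cytokines and adherence, and many of their mRNAs are short-lived.

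Both groups were BM macrophages of male C57BL/6J mice, 4 weeks old in the description of these experiments and 4 to 6 weeks in the general methods, with no transgene or deletion given, grown in M-CSF at 30 ng/mL. Efferocytic cells had been co-cultured for 16 to 18 h in 0.25% serum with apoptotic RM1 cells (a Ras and Myc induced prostate cancer line of C57BL/6J mice, killed with UV light and stained with the dye CFSE) and were sorted as F4/80+CFSE+. Non-efferocytic cells were sorted as F4/80+, and the study describes them both as non-engulfing and as macrophages alone, so that engulfment and exposure to dying cells cannot be told apart. Each of 2 experiments gave 1 library of the 10X Genomics 3′ kit per group, 4 libraries in all, and the study calls the experiments independent. Its general methods give at least 3 mice per group for work with BM macrophages. How many mice gave each of these libraries is not given in the sources used here. With the experiment as a block, p-values set the change between groups against its difference between the 2 experiments. The dispersion behind them is drawn in large part from all genes, so that the difference seen in a single gene enters only in part. Dusp1, with log2 ratios of -2.18 and -0.45 in the experiments, passed all the same. Whether the p-values cover a spread between mice is not known.

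The cells kept numbered 6695 to 13411 per library, with 101216659 to 155224183 UMIs (captured molecules) per library. Mean UMIs per cell were 1.53 times higher in efferocytic cells in Experiment 1 and 1.79 times in Experiment 2. All 12 macrophage markers were found in every library, at a summed level of 41592 CPM (UMIs per 1000000 UMIs in cells) without and 33206 CPM with engulfment in Experiment 1 and of 35771 and 25234 CPM in Experiment 2, with 6 markers lower and 1 higher. Markers of other cells moved the same way as the 26 genes: all 9 neutrophil, all 6 monocyte and all 5 MHC class II markers were lower, with the summed neutrophil markers at 3046 CPM against 953 CPM with engulfment in Experiment 1 and 3339 CPM against 705 CPM in Experiment 2, and 4 of 7 fibroblast markers were lower. The part of these cells in the lower levels was not tested apart from counts in gated cells. The 10 markers expected of RM1 cells summed to 39.2 and 11.4 CPM in Experiment 1 and 47.6 and 22.6 CPM in Experiment 2, with 4 lower and at most 2 at 0 in a library. Of the markers tested, 2 of 5 lymphocyte markers were lower, 1 of 3 dendritic cell markers was higher and 1 lower, 2 of 8 cycling markers were higher and 1 lower, and 0 of 5 erythroid and 0 of 1 mast cell and basophil markers passed. The 2 libraries of Experiment 2 shared 118 barcodes, 1.40% of the smaller one, and those of Experiment 1 shared 15.

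Sequences of the promoters are given first for 6 genes of different outcome, to show how unlike they are in motifs. Each line holds the 250 bases before the transcription start in RefSeq, on GRCm38.p6 (mm10), read 5′ to 3′ on the strand of the gene. Gene positions given below are from GENCODE M21, and its starts can differ from those of RefSeq. The windows of Zfp36, Tnfaip3 and Ier3 thus lie wholly or partly inside the GENCODE gene. Capitals mark matches to the motifs searched: the kB motif of NF-kB (by name), the CArG motif of serum response factor (by name), AP-1 (TGANTCA, bound by dimers of FOS and JUN), the core of the cAMP response element, CRE (TGACGT, bound by CREB and ATF factors), EGR (GCGNGGGCG, bound by the EGR zinc fingers), all of them on both strands, and the TATA box (TATAAA, on the strand of the gene only).
Fos, chr12:85473640-85473889, plus strand: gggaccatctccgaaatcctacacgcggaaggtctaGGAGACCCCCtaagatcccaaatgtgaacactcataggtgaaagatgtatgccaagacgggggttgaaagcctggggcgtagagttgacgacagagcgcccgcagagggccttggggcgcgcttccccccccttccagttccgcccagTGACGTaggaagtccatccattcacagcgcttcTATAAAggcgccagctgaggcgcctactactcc
Zfp36, chr7:28379229-28379478, minus strand: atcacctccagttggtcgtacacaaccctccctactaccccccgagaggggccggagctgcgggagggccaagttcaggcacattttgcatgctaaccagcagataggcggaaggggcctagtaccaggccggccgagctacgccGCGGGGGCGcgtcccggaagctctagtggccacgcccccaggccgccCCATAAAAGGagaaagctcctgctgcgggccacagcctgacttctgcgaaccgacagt
Ier3, chr17:35821463-35821712, plus strand: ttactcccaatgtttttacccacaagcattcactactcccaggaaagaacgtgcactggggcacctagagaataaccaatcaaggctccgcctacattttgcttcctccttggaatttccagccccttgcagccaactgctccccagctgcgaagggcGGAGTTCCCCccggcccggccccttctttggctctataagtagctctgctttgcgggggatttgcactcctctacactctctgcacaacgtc
Nfkbia, chr12:55492648-55492897, minus strand: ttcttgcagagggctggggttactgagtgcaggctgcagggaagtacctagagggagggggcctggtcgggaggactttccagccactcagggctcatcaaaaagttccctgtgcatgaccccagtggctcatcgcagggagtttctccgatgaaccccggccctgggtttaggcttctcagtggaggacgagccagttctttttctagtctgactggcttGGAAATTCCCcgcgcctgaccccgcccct
Tnfaip3, chr10:19015411-19015660, minus strand: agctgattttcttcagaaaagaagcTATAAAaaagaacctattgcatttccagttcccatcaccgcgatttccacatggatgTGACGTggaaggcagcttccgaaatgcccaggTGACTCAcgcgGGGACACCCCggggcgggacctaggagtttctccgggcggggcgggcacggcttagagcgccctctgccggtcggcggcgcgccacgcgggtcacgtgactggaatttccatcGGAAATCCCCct
Tnf, chr17:35202008-35202257, minus strand: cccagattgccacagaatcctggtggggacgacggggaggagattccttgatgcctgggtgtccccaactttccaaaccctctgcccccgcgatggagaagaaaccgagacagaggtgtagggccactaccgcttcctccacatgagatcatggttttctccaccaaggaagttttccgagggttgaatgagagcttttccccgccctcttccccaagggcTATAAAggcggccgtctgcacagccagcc
The window of Fos held a kB match at 214 to 205 bases before the start, a CRE core at 66 to 61 bases and TATAAA at 33 to 28 bases. Zfp36 held an EGR match at 105 to 97 bases and a CArG match at 58 to 49 bases. Ier3 and Nfkbia each held 1 kB match, at 92 to 83 and 29 to 20 bases before the start. Tnfaip3, which was not called in the comparison, held 2 kB matches, an AP-1 match, a CRE core and TATAAA, and Tnf, not called either, held only TATAAA at 29 to 24 bases.

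Promoter windows of 300 bases (250 before and 50 after the start) were used for 31 of the 38 genes, and Egr1, Egr3, Ier2, Zfp36l2, Nfkbiz, Nfkb1 and Relb had none. A kB match was present in 9 of the 31 windows (29.0%), against 4.35% of 27025 promoters and 5.03% of the 10469 promoters of tested genes. The 9 were those of Fosl2, Fosb, Fos, Ier3, Rel, Nfkb2, Nfkbia, Nfkbie and Tnfaip3, of which Tnfaip3 alone was not called lower. Of all 38 genes 26 were lower, among them each of those without a window. The group was chosen to hold NF-kB feedback genes, and the relation of kB matches to the calls was not tested. The CRE core was present in 7 windows (22.6%, against 11.8% of tested genes), in Btg2, Atf3, Tnfaip3, Rel, Fos, Dusp1 and Dusp5. An EGR match was present in 7 windows (22.6%, against 10.3%), TATAAA in 5 (16.1%, against 4.64%), AP-1 in 3 (9.68%, against 5.27%) and CArG in 2 (6.45%, against 1.39%). These are matches of letters in 1 window per gene and show neither binding nor its absence.

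AU-rich elements were counted in the 3′ untranslated region of 1 GENCODE M21 transcript per gene as the heptamer TATTTAT. It occurred in 21 of the 38 genes (55.3%), against 26.8% of 12615 tested genes, and 3 or more copies occurred in 7 of them (18.4%, against 3.31%). Of the 26 lower genes 15 held at least 1 copy, and of the 12 genes not called 6 did. The stretches of 30 bases with most copies are shown for 5 of the genes, with the heptamers in capitals.
Tnf, chr17:35199678-35199707, minus strand: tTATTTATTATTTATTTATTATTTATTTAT
Ier3, chr17:35822477-35822506, plus strand: tccgtgtctaattaaTATTTATgTATTTAT
Zfp36, chr7:28376962-28376991, minus strand: gggcccttTATTTATgacgacttTATTTAT
Dusp1, chr17:26506167-26506196, minus strand: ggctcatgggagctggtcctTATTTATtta
Fos, chr12:85477091-85477120, plus strand: acgtttttattgtgttttcaattTATTTAT
Tnf, which codes for the cytokine TNF, had 8 copies in 764 bases, the highest number among the 38 genes, and was not called. Ier3 had 4 copies in 613 bases, Zfp36 and Dusp1 had 3 each, and Fos had 2, and all of these were lower.

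**Figure D1:**
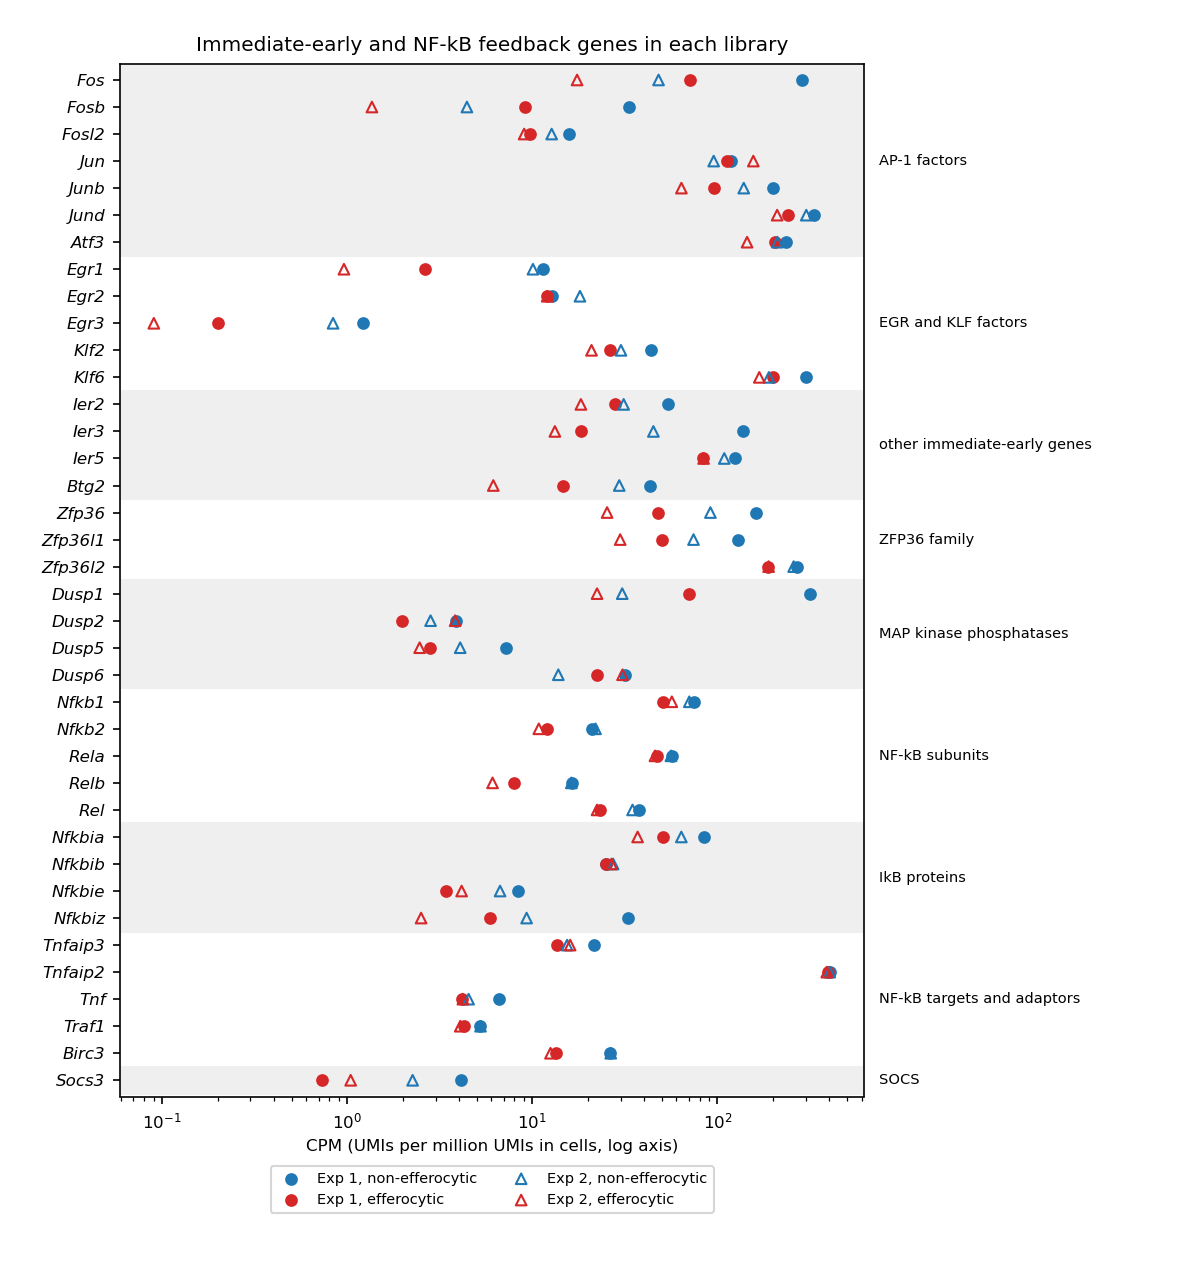
Level of each of the 38 genes in CPM (horizontal log axis) in the 4 libraries, grouped by role, with circles for Experiment 1, triangles for Experiment 2, blue for non-efferocytic and red for efferocytic cells. In 29 genes both red points lie left of both blue points, as in Zfp36, while for Fos the circles lie far right of the triangles in both colors.

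Both efferocytic libraries were under both non-efferocytic libraries in CPM for 29 of the 38 genes, against 44.7% of all genes tested, and both were over them for 0, against 22.2%. Within the experiments, 33 genes were lower in efferocytic cells in both, 5 had ratios of opposite sign and 0 were higher in both. The share of all genes tested that were lower in both was not counted. It is at least 44.7%, since genes with both efferocytic libraries under both non-efferocytic ones are lower in both. The median log2 ratio over the 38 genes was -0.77 in Experiment 1 and -0.61 in Experiment 2. Over all genes tested and found in every library it was -0.16 and -0.08. The summed level of the 38 genes was 3693 CPM in non-efferocytic and 2168 CPM in efferocytic cells of Experiment 1, and 2514 and 1870 CPM in Experiment 2. Levels are given in the order non-efferocytic and efferocytic of Experiment 1, then of Experiment 2, and each log2 fold change is efferocytic over non-efferocytic from edgeR with the experiment as a block, with its standard error (SE), n = 2 libraries per group. Lower mRNA per cell and fewer cells with the mRNA are not told apart in these sums. CPM are scaled to library totals only, while the fit adds a scaling between libraries (TMM). With library totals alone the fitted median of all genes was -0.12 instead of -0.02, so that CPM ratios lie somewhat under the fold changes.

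Of the AP-1 factors, which bind DNA as dimers of FOS and JUN proteins, 5 of 7 were lower. Fos (chr12:85473890-85477273, plus strand) had 286 and 71.3 CPM in Experiment 1 and 48.1 and 17.4 CPM in Experiment 2, a log2 fold change of -1.63 (SE 0.12, adjusted p = 9.68e-05, edgeR). Efferocytic cells of Experiment 1 thus held more Fos than non-efferocytic cells of Experiment 2, so that the groups overlapped although Fos was lower in each experiment. Fosb, a partner of JUN proteins with the same early kinetics, had 33.3, 9.09, 4.43 and 1.36 CPM and overlapped likewise (-1.69, SE 0.10, adjusted p = 4.61e-05). Without the non-efferocytic library of Experiment 1 the log2 fold changes were 0.02 for Fos and 0.37 for Fosb. That fit had no block and set the non-efferocytic library of Experiment 2 against the efferocytic libraries of both experiments. Within Experiment 2 the log2 ratios of CPM were -1.46 for Fos and -1.70 for Fosb.

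Junb, an AP-1 factor of cytokine-stimulated and myeloid cells, had 199, 95.3, 139 and 63.8 CPM (-0.98, SE 0.09, adjusted p = 1.95e-04). Its groups did not overlap. Jund, which is expressed more steadily than other AP-1 genes, had 332, 242, 302 and 210 CPM (-0.38, SE 0.10, adjusted p = 0.0166), and Fosl2 had 15.8, 9.68, 12.7 and 9.03 CPM (-0.49, SE 0.09, adjusted p = 0.00449). Both changes were smaller than those of Fos, Fosb and Junb.

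Jun and Atf3 were not called, although the study lists Atf3 among the genes that were upregulated with efferocytosis. Jun had 119, 113, 95.4 and 156 CPM, a log2 fold change of 0.42 (SE 0.15, adjusted p = 0.0582), and only the efferocytic library of Experiment 2 stood above the others. Jun passed the threshold, as higher, with DESeq2 (adjusted p = 0.0232), without a filter on low counts, with at most 5% mitochondrial UMIs and in cells thinned to 5000 UMIs. Atf3, a stress-induced repressor of inflammatory genes, had 235, 203, 211 and 145 CPM (-0.27, SE 0.12, adjusted p = 0.0992), and passed as lower with library totals, with a mean of at least 10 CPM, in cells without a cycling marker, in the window of 10000 to 20000 UMIs and without the efferocytic library of Experiment 1 (-0.55).

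The EGR factors, zinc finger proteins induced by MAP kinase signals, held the largest changes. Egr1 had 11.4, 2.62, 10.1 and 0.960 CPM, from 1151, 327, 1394 and 149 UMIs (-2.61, SE 0.27, adjusted p = 3.95e-04). Egr3 had 1.22, 0.200, 0.838 and 0.0902 CPM, from 123, 25, 116 and 14 UMIs (-2.75, SE 0.28, adjusted p = 3.79e-04). For both genes the 2 non-efferocytic libraries were close to each other and far above both efferocytic ones. Egr2, a factor of macrophage differentiation and alternative activation, had 12.8, 12.0, 18.1 and 12.0 CPM (-0.24, SE 0.13, adjusted p = 0.183) and was not called, except as lower with library totals and in cells without a cycling marker.

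Klf2, a factor that restrains inflammatory activation of myeloid cells, had 44.0, 26.3, 30.1 and 20.9 CPM (-0.53, SE 0.08, adjusted p = 0.00184) and was lower. Klf6, a relative, had 299, 199, 190 and 168 CPM (-0.27, SE 0.11, adjusted p = 0.0785) and was not called. It passed as lower with library totals, with a mean of at least 10 CPM, in cells thinned to 5000 UMIs and in cells with macrophage markers. The Klf6 level of the Experiment 1 efferocytic library was above that of the Experiment 2 non-efferocytic library.

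The other immediate-early genes were lower in 4 of 4. Ier3 (chr17:35821684-35822923, plus strand), a survival gene that NF-kB induces, had 137, 18.2, 45.1 and 13.2 CPM (-2.23, SE 0.21, adjusted p = 2.65e-04). Its non-efferocytic level was 3.03 times higher in Experiment 1 than in Experiment 2, while the efferocytic levels differed by 1.38 times. Btg2, an antiproliferative gene whose product promotes deadenylation of mRNA, had 43.3, 14.7, 29.5 and 6.15 CPM (-1.79, SE 0.16, adjusted p = 2.29e-04). Ier2 had 54.0, 28.0, 31.1 and 18.3 CPM (-0.75, SE 0.08, adjusted p = 3.60e-04) and Ier5, a regulator of heat shock factor, had 124, 83.1, 109 and 84.2 CPM (-0.37, SE 0.08, adjusted p = 0.0107). The groups of these 4 genes did not overlap.

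The ZFP36 family was lower in 3 of 3. Zfp36 (chr7:28376784-28380253, minus strand), which codes for tristetraprolin, had 162, 47.5, 91.6 and 25.3 CPM (-1.70, SE 0.09, adjusted p = 2.95e-05). Its log2 ratio was -1.77 in Experiment 1 and -1.85 in Experiment 2. Zfp36l1 had 129, 49.9, 74.2 and 29.8 CPM (-1.23, SE 0.08, adjusted p = 6.12e-05), with ratios of -1.37 and -1.32. Zfp36l2 changed less, with 270, 187, 258 and 189 CPM (-0.38, SE 0.09, adjusted p = 0.0125). Their partners in mRNA decay were listed as deadenylases, decapping and exonuclease genes and competing binders. Of these 15 genes 2 were higher and 2 lower, against 19.9% and 19.0% of all genes tested. Xrn1 was at -0.36, Cnot6 at 0.30 and Elavl1 at 0.28 on the log2 scale.

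**Figure D2:**
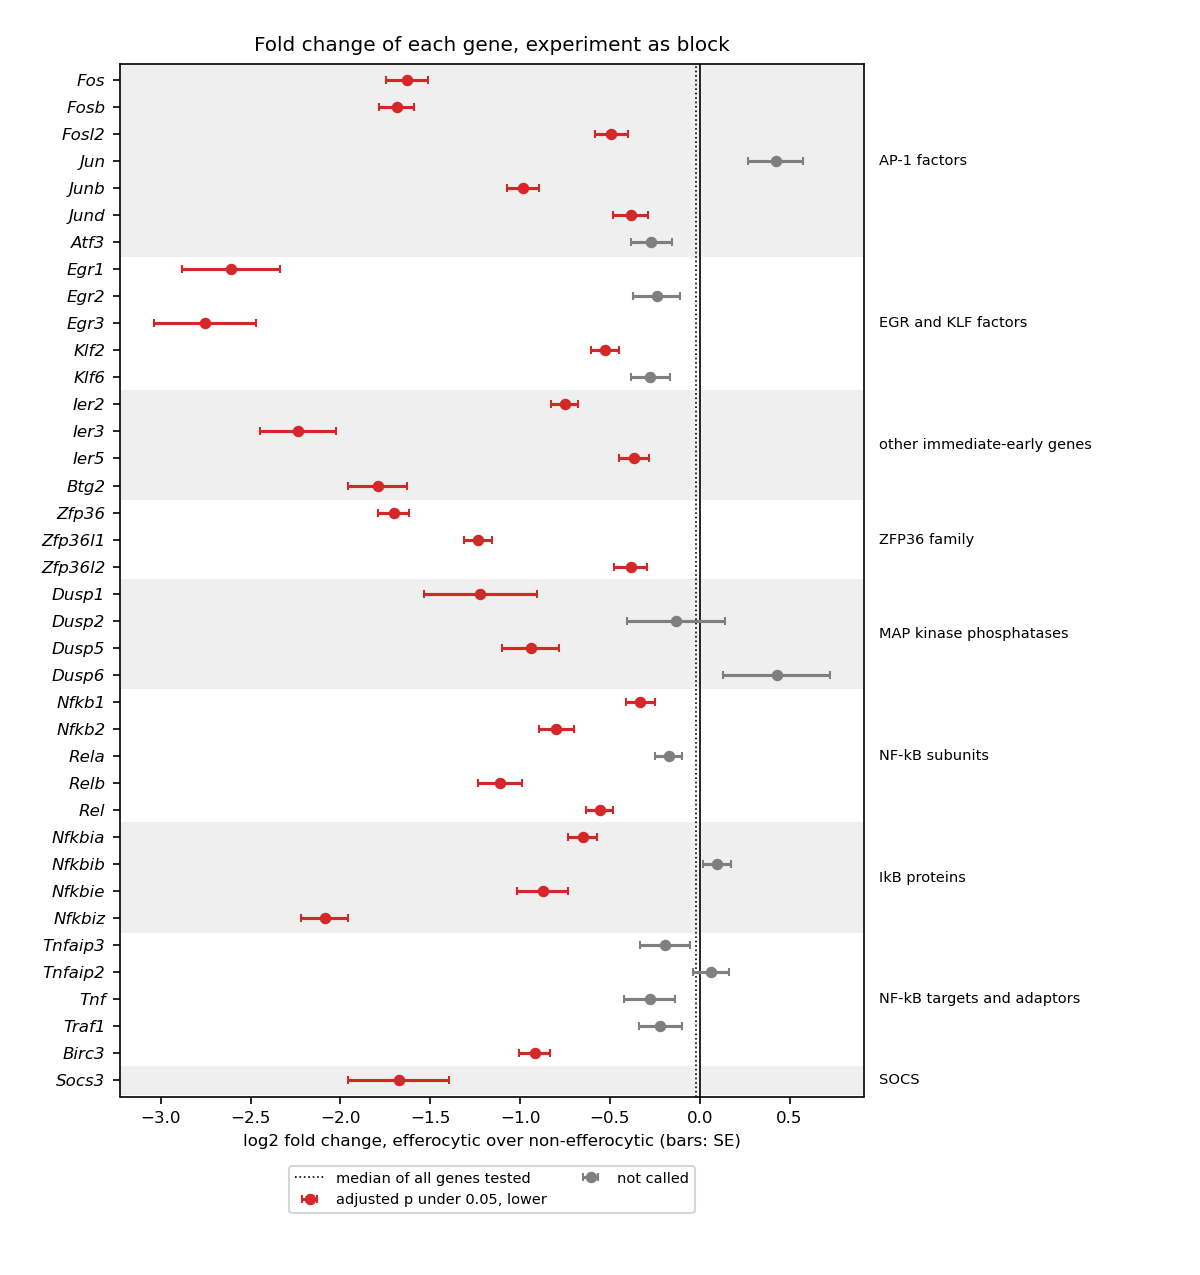
Log2 fold change of each gene, efferocytic over non-efferocytic (horizontal axis), from edgeR with the experiment as a block, n = 2 libraries per group, with bars of 1 SE. Red points passed the adjusted p of 0.05 (26 genes, all lower), gray points did not (12 genes), and the dotted line is the median of all genes tested at -0.02.

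The MAP kinase phosphatases, which switch off ERK, p38 and JNK, were lower in 2 of 4. Dusp1 (chr17:26505590-26562128, minus strand) had 316 and 69.9 CPM in Experiment 1 but 30.6 and 22.4 CPM in Experiment 2. The log2 ratio was thus -2.18 in the first and -0.45 in the second, and the fit gave -1.22 (SE 0.32, adjusted p = 0.0181). Its non-efferocytic level was 10.3 times higher in Experiment 1 than in Experiment 2, and the groups overlapped. The call for Dusp1 was lost with DESeq2 (adjusted p = 0.253). Without the non-efferocytic library of Experiment 1 the log2 fold change was 0.72, in a fit that had no block and kept both efferocytic libraries. Dusp5, a nuclear phosphatase of ERK, had 7.20, 2.79, 4.08 and 2.46 CPM (-0.94, SE 0.16, adjusted p = 0.00297).

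Dusp2 and Dusp6 were not called, and moved in opposite directions in the experiments. Dusp6, the cytoplasmic ERK phosphatase, had 31.6, 22.3, 13.8 and 30.7 CPM (0.43, SE 0.30, adjusted p = 0.283). Dusp2, a nuclear phosphatase of activated leukocytes, had 3.85, 1.97, 2.82 and 3.83 CPM (-0.13, SE 0.27, adjusted p = 0.724). Among 14 other feedback genes of MAP kinases (Sprouty, Spred and further DUSP genes), 5 were higher and 2 lower (against 19.9% and 19.0% of all genes), with a median log2 fold change of 0.37, and DESeq2 called 2 higher and 0 lower. Dusp4 had 4.59, 6.28, 3.84 and 13.2 CPM (1.24, SE 0.25, adjusted p = 0.00653), Spred2 had 3.88, 5.26, 3.27 and 12.1 CPM (1.29, SE 0.27, adjusted p = 0.00788) and Spry2 had a log2 fold change of 0.66. In Dusp4 and Spred2 the efferocytic library of Experiment 2 was the highest by far, and Dusp6 had a log2 ratio of 1.15 in that experiment. Of 25 genes of the cascade itself, down to the ribosomal S6 kinases, 5 were higher and 3 lower.

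Of the NF-kB subunits, 4 of 5 were lower. Relb and Nfkb2, the pair of the noncanonical pathway, changed most: Relb had 16.3, 8.01, 16.2 and 6.09 CPM (-1.11, SE 0.12, adjusted p = 5.03e-04) and Nfkb2 had 20.9, 12.1, 21.9 and 10.8 CPM (-0.80, SE 0.10, adjusted p = 7.95e-04). Rel had 37.6, 23.3, 34.8 and 22.4 CPM (-0.56, SE 0.08, adjusted p = 0.00122), and Nfkb1, the precursor of p50, had 74.8, 50.6, 70.4 and 56.7 CPM (-0.33, SE 0.08, adjusted p = 0.0146). Rela, the main activating subunit, had 56.8, 46.9, 56.1 and 46.0 CPM (-0.17, SE 0.08, adjusted p = 0.102) and was not called, but passed as lower with library totals (-0.28) and with a mean of at least 10 CPM (-0.27). For these 5 genes the 2 non-efferocytic libraries differed by at most 1.08 times, unlike Fos and Dusp1.

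Of the IkB proteins, 3 of 4 were lower. Nfkbiz, a nuclear IkB that co-activates secondary NF-kB targets, had 32.9, 5.93, 9.31 and 2.51 CPM (-2.09, SE 0.13, adjusted p = 5.80e-05). Nfkbia (chr12:55489410-55492647, minus strand), the inhibitor that NF-kB induces first, had 85.0, 51.1, 63.8 and 37.0 CPM (-0.65, SE 0.08, adjusted p = 7.36e-04). Nfkbie had 8.32, 3.42, 6.69 and 4.15 CPM (-0.87, SE 0.14, adjusted p = 0.00279). Nfkbib, an IkB that is not itself induced by NF-kB, had 24.9, 25.1, 27.3 and 26.8 CPM and did not pass the test (0.10, SE 0.08, adjusted p = 0.362). Its sign turned with library totals (-0.01) and in the window of 10000 to 20000 UMIs (-0.18).

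Of the NF-kB targets and adaptors, 1 of 5 was lower, which is near the 19.0% of all genes tested. Birc3, a ubiquitin ligase of TNF receptor complexes, had 26.2, 13.3, 26.5 and 12.5 CPM (-0.92, SE 0.09, adjusted p = 2.57e-04), with both experiments nearly equal. Tnfaip3, which codes for the deubiquitinase A20, had 21.4, 13.6, 15.4 and 16.0 CPM (-0.19, SE 0.14, adjusted p = 0.299). Tnf had 6.64, 4.17, 4.52 and 4.21 CPM (-0.28, SE 0.14, adjusted p = 0.158), and Traf1 had 5.25, 4.30, 5.25 and 4.08 CPM (-0.22, SE 0.12, adjusted p = 0.175). Tnfaip2, a TNF-induced gene of myeloid cells, had 406, 398, 404 and 389 CPM (0.07, SE 0.10, adjusted p = 0.635). Its CPM were slightly lower in both experiments, while the fit, with its further scaling of the libraries, was above 0. Tnfaip3 and Tnf, whose mRNAs are induced by NF-kB like that of Nfkbia, thus differed from Nfkbia in the test, but the difference between the genes was not tested.

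Socs3, the inhibitor of IL-6 receptor and JAK signals, was lower, at 4.14, 0.728, 2.26 and 1.04 CPM from 419, 91, 312 and 162 UMIs (-1.68, SE 0.28, adjusted p = 0.00302). Of 18 genes of the SOCS and STAT3 pathway beside it, 2 were higher and 5 lower, against 19.9% and 19.0% of all genes tested. The lower ones included the receptors Il6ra (-0.85), Il10ra (-0.75) and Il4ra (-0.56).

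Genes around the 38 were counted from lists that hold none of them, to be read beside 19.0% of all genes lower and 19.9% higher. Of 30 other immediate-early genes tested, 14 were lower and 1 was higher, and the largest changes were in Cyr61, a matricellular gene, with 5.45, 1.03, 3.31 and 0.329 CPM (-2.70, SE 0.24), Nr4a1, an orphan nuclear receptor, with 6.47, 1.11, 4.58 and 0.992 CPM (-2.27, SE 0.15) and Nfil3 (-1.18). Of 14 other NF-kB feedback genes 8 were lower and 2 higher, among them Bcl3 (-0.998), Nfkbid (-0.55) and Tnip2 (-0.53). Of 22 other NF-kB targets 11 were lower and 7 higher, with the chemokine Cxcl10 at 14.6, 0.688, 11.5 and 1.37 CPM (-3.56, SE 0.26), Il1b at -3.53 and Cxcl1 at -2.84. Of 26 IKK and adaptor genes 6 were lower and 1 higher, with Map3k14, the kinase that activates the noncanonical pathway, at 13.3, 6.11, 11.8 and 5.69 CPM (-0.98, SE 0.10), the TNF receptor Tnfrsf1b at -0.87 and Ikbke, which codes for a relative of the IKK kinases, at -0.72. Heat shock genes, which cells induce under stress, were higher in 6 of 12 and lower in 3, with Hspa5, a chaperone of the endoplasmic reticulum, at 220, 400, 200 and 447 CPM (1.12, SE 0.11), and Hspb1 (-1.79) and Hspa1b (-1.09) lower. Per cell the counts moved toward higher levels, beside 4.23% of all genes lower and 49.9% higher: 2 of the other immediate-early genes were lower and 12 higher, 0 and 3 of the NF-kB feedback genes, 7 and 9 of the NF-kB targets, 0 and 13 of the IKK and adaptor genes, and 1 and 8 of the heat shock genes. Per cell, 1 of the MAP kinase feedback genes was lower and 9 were higher, with 0 and 12 of the cascade, 0 and 7 of the mRNA decay partners and 1 and 8 of the SOCS and STAT3 genes.

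Some of the 38 genes had other levels in Experiment 1 than in Experiment 2, while others, such as Egr1 and Jund in non-efferocytic cells, were nearly equal. The difference between the experiments was not tested. In non-efferocytic cells 6 of the 38 genes had at least 2 times the level in Experiment 1 that they had in Experiment 2, against 1.51% of genes tested, and in efferocytic cells 7 did, against 2.21%. The excess in non-efferocytic cells was 10.3 times for Dusp1, 7.51 for Fosb, 5.95 for Fos, 3.53 for Nfkbiz, 3.03 for Ier3 and 2.29 for Dusp6. In efferocytic cells it was 6.69 times for Fosb, 4.09 for Fos, 3.13 for Dusp1, 2.73 for Egr1, 2.39 for Btg2, 2.37 for Nfkbiz and 2.22 for Egr3. For Fosb, Fos, Dusp1 and Nfkbiz each library of Experiment 1 thus stood above the library of the same group in Experiment 2. The counts of the experiments came from Cell Ranger 3.0.0 and 3.1.0, and the part of this in the excess was not tested.

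**Figure D3:**
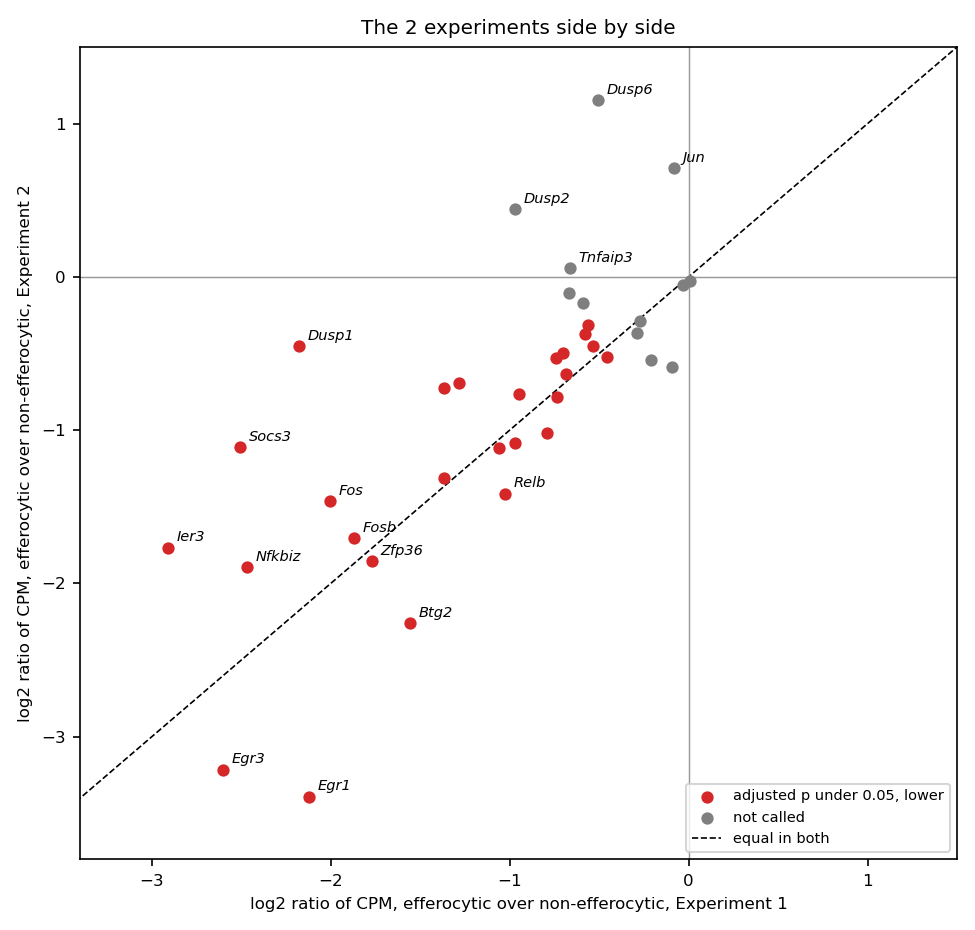
Log2 ratio of CPM, efferocytic over non-efferocytic, in Experiment 1 (horizontal axis) and Experiment 2 (vertical axis), 1 point per gene and 1 library per group in each experiment. The dashed line marks equal ratios: Zfp36 lies close to it at -1.77 and -1.85, Dusp1 lies above it at -2.18 and -0.45, and Egr1 lies below it at -2.12 and -3.39.

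Since efferocytic cells held more UMIs, a fall in CPM need not be a fall per cell. On the scale of UMIs per cell, the 11 lower genes were Fos, Fosb, Egr1, Egr3, Ier3, Btg2, Zfp36, Zfp36l1, Dusp1, Nfkbiz and Socs3, and the 4 higher ones were Jun, Dusp6, Nfkbib and Tnfaip2. Per 1000 cells, Egr1 had 139 and 48.8 UMIs in Experiment 1 and 104 and 17.7 in Experiment 2, and Zfp36 had 1978 and 886 UMIs and 945 and 468. Nfkbia had 1039 and 954 UMIs in Experiment 1 and 658 and 684 in Experiment 2, a log2 fold change per cell of -0.03 (SE 0.25, adjusted p = 0.913, edgeR). The 5 NF-kB subunits ranged from -0.49 (Relb) to 0.45 (Rela) per cell, none past the threshold, while the median of all genes tested was 0.60 on that scale.

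In cells of 10000 to 20000 UMIs in every library, a window chosen after the data were seen, mean UMIs per cell were 13950 and 15058 in Experiment 1 and 13879 and 15354 in Experiment 2. There 25 of the 38 genes were lower and 0 were higher, against 16.1% of genes lower, with 28 genes at an unadjusted p under 0.05, against 43.3% of genes. Zfp36l2 and Nfkb1 lost the call and Atf3 gained one. The log2 fold change was -1.76 for Fos, -3.01 for Egr1, -1.60 for Zfp36 and -1.84 for Nfkbiz.

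**Figure D4:**
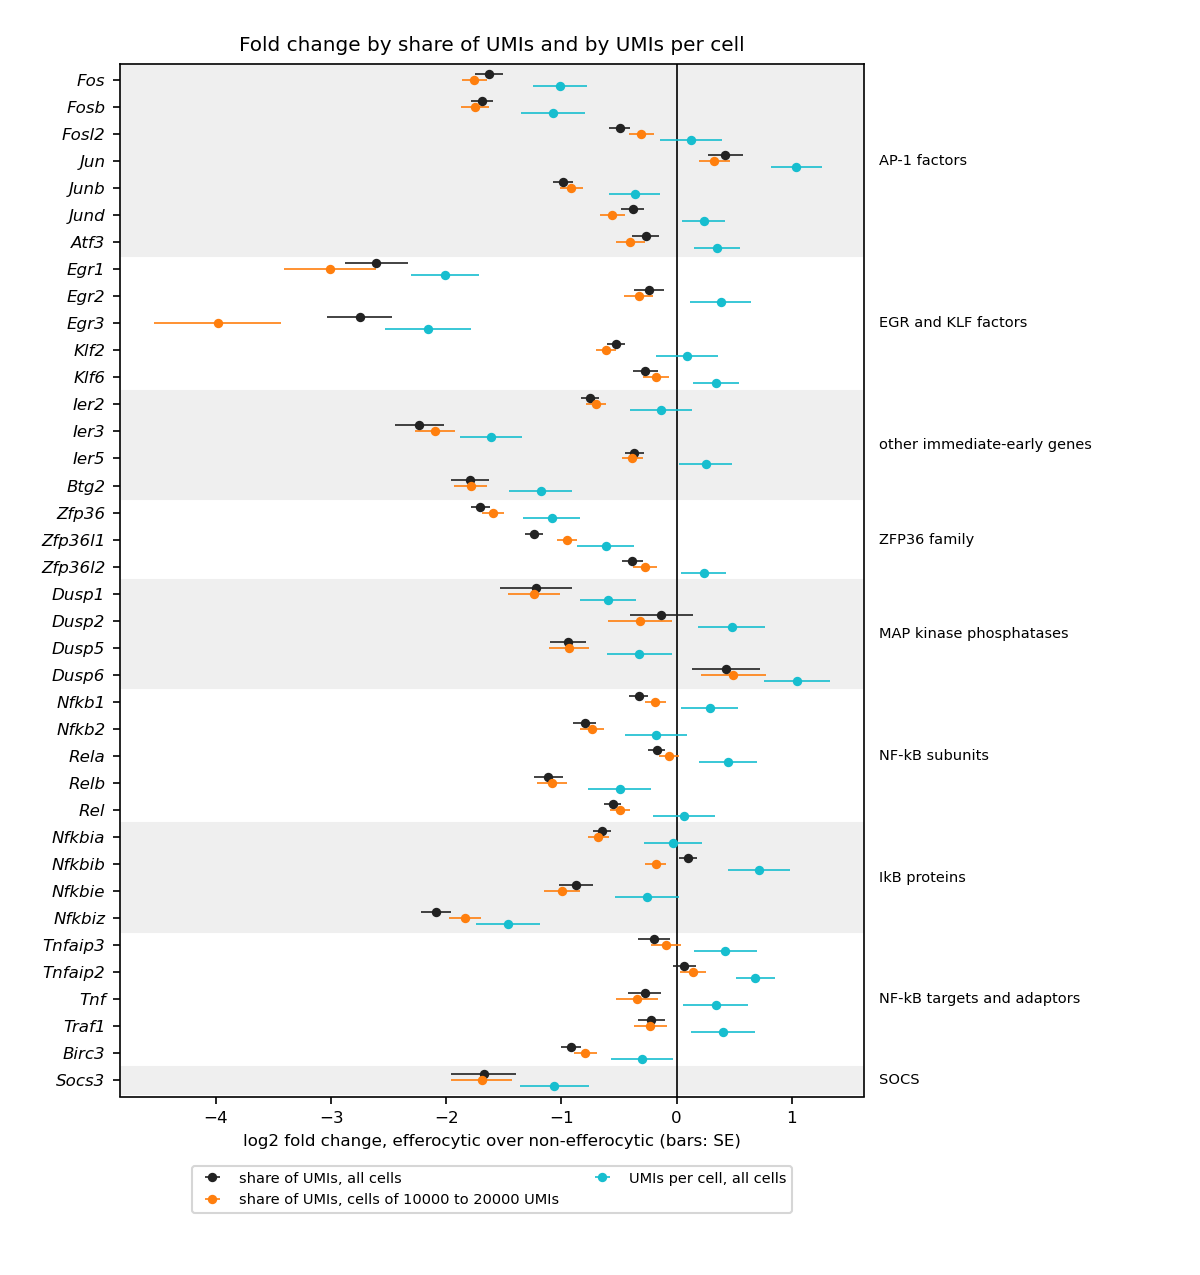
Log2 fold change of each gene with bars of 1 SE (edgeR, experiment as a block, n = 2 libraries per group): per 1000000 UMIs in all cells (black), per 1000000 UMIs in cells of 10000 to 20000 UMIs (orange) and per cell (cyan). The cyan points lie about 0.6 to the right of the black ones, with Nfkbia at -0.65 and -0.03, while the orange points lie close to the black ones in most genes.

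The relation of the genes to UMIs within a library was examined in 3 groups of cells of equal size. The median ratio of CPM in the third with fewest UMIs over the third with most was 1.51 and 1.26 in non-efferocytic and efferocytic cells of Experiment 1 and 1.53 and 1.35 in Experiment 2, while the median over genes tested was 1.10, 1.12, 1.18 and 1.11 in the order of the libraries. In 28 of the 38 genes the ratio was over 1 in every library, against 44.7% of 13722 genes. Zfp36l1 had ratios of 1.84 to 2.18, and Jun had ratios of 1.00 to 1.05. Nfkbib had ratios of 0.70 to 0.81, the only member under 1 in all 4 libraries.

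The lower levels were also present within classes of cells. In cells low in MHC class II, 26 of the 38 genes were lower, against 18.2% of genes tested. In cells with at least 3 macrophage markers and at most 1 UMI of the neutrophil, fibroblast, lymphocyte, erythroid and mast cell markers together, 27 were lower, against 18.7%. In cells without a UMI of the cycling markers 28 were lower, against 15.8%, and in cells without a UMI of the RM1 markers 26 were, against 18.6%. Without the barcodes that the libraries of an experiment share, an alternative added after the data were seen, 26 were lower, against 18.8%. These choices of cells did not level the markers of other cells. In the cells with macrophage markers 5 of 6 neutrophil markers tested (median log2 fold change -2.26), 4 of 6 monocyte, 5 of 5 MHC class II and 3 of 3 fibroblast markers were still lower, and in the cells low in MHC class II all 5 MHC class II markers (-2.38), all 9 neutrophil and all 6 monocyte markers were. The median ratio of MHC class II high over low cells was 0.92 to 1.10 in the 4 libraries, against 0.82 to 0.92 over genes tested, and 6 genes were over 1 in each (against 8.87% of genes), among them Nfkbia with 1.15 to 1.58 and Relb with 1.01 to 1.75.

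Barcodes with 10 to 100 UMIs carried larger shares of these genes than the cells did. They are taken here to hold mainly RNA that was free in the suspension, which was not tested. In the order of the libraries, 30, 34, 32 and 35 of the 38 genes had a higher share there, against 53.4%, 57.8%, 39.7% and 43.2% of genes tested. Fos had 1041, 1355, 395 and 253 CPM in these barcodes, and Egr1 had 330, 500, 98.8 and 104 CPM. Free RNA of this makeup could give at most 3.45%, 0.47%, 2.46% and 0.92% of the UMIs in cells of the 4 libraries before Egr1 or Socs3 was used up, counting error aside. With 0.5% of UMIs removed on this pattern, a share chosen after the data were seen, 25 genes were lower, against 16.1% of genes tested, and Socs3 lost the call. That share is just above the limit of the Experiment 1 efferocytic library, where it left Socs3 at 0 UMIs, so that the fitted log2 fold change of Socs3 (-3.33) is no measure of its level, and that of Egr1 was -5.02. With 10% removed, above the limits of all 4 libraries, 5 of 36 genes tested were lower (Fos, Btg2, Zfp36, Zfp36l1 and Birc3), against 0.953% of all genes. The part of free RNA in the levels was not tested otherwise.

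Several immediate-early genes were spread more widely over single cells than the NF-kB subunits. Cells were thinned to 5000 UMIs each, and those with fewer were left out (1099, 544, 3404 and 505 cells), so that 86.7%, 91.9%, 74.6% and 94.0% of cells remained. The variance of UMIs per cell over their mean, which is 1 for counting error alone, had a median of 1.03 to 1.04 over genes with a mean of at least 0.05 UMIs. For Fos the ratio was 2.66 and 1.69 in Experiment 1 and 1.88 and 1.36 in Experiment 2, and for Junb 1.95, 1.29, 1.86 and 1.25. Ier3 had 2.11, 1.28, 1.82 and 1.54 and Dusp1 2.71, 1.88, 1.57 and 1.52. Rela had 1.04, 1.01, 1.02 and 1.02 and Rel 1.06, 1.06, 1.05 and 1.07. Tnfaip2, which was not called, had 1.98, 1.88, 1.70 and 1.64, and Nfkbia had 1.53, 1.35, 1.40 and 1.26. The ratio depends on the level of a gene, and the part of the level in the difference between groups was not tested.

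**Figure D5:**
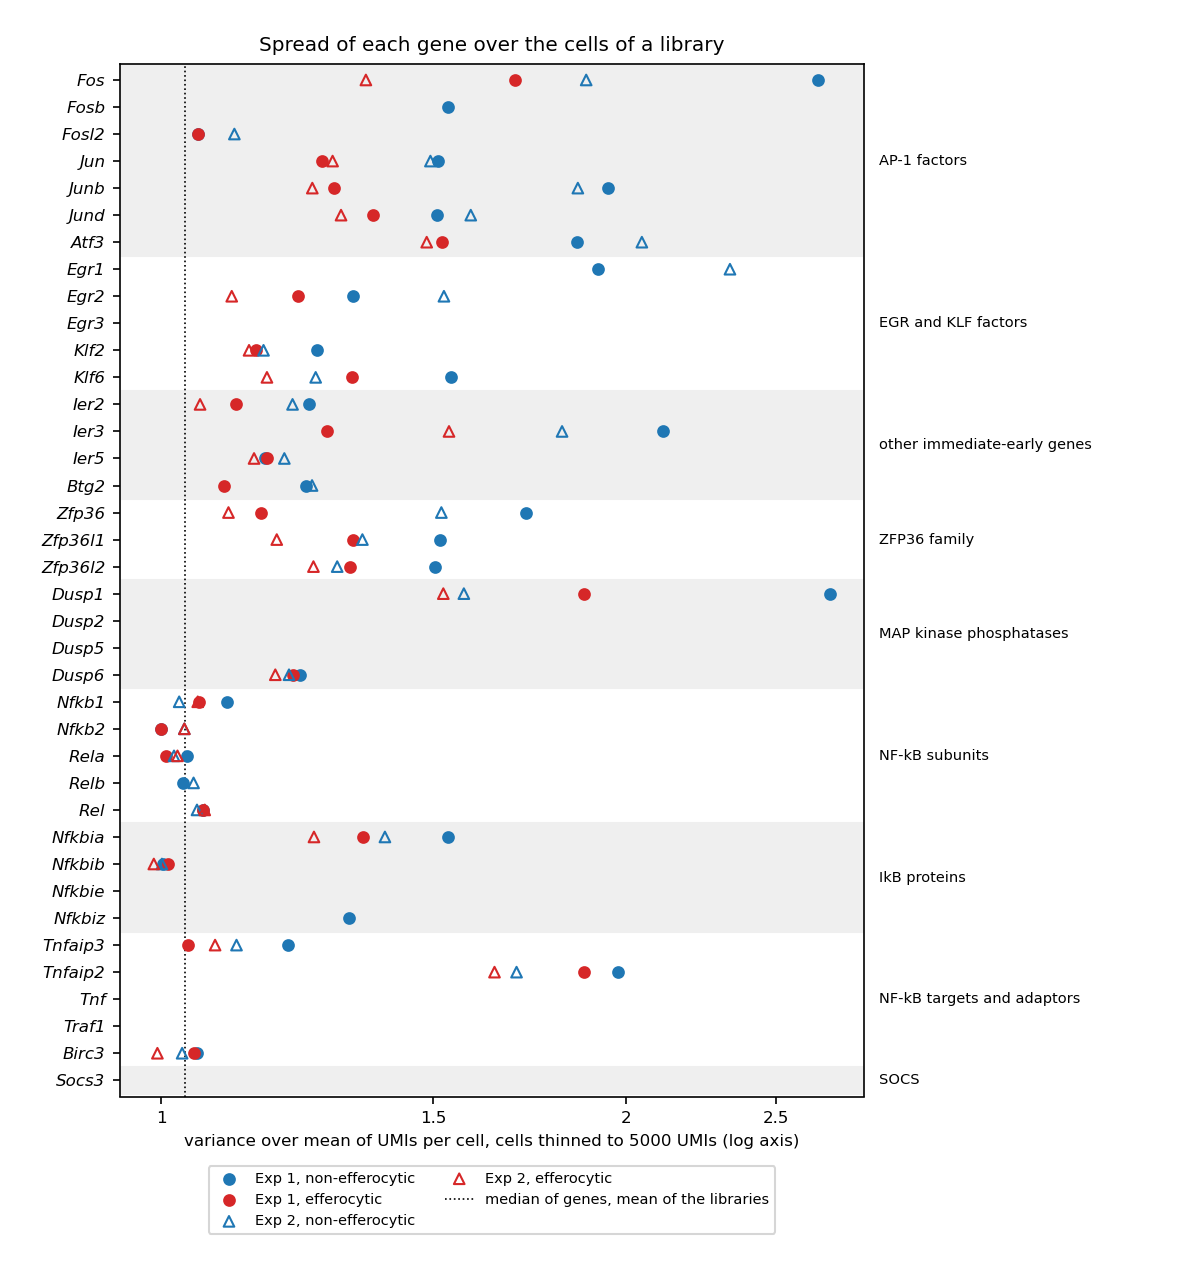
Variance over mean of UMIs per cell (horizontal log axis) for each gene with a mean of at least 0.05 UMIs per cell, after thinning to 5000 UMIs, with circles for Experiment 1, triangles for Experiment 2, blue for non-efferocytic and red for efferocytic cells. NF-kB subunits lie near the dotted line, the median of genes, while Fos reaches 2.66 and Dusp1 2.71 in non-efferocytic cells of Experiment 1.

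Across single cells of a library, each thinned to 5000 UMIs, correlations between these genes were weak, as a description of sparse counts that share free RNA. The highest in Experiment 1 was that of Fos and Dusp1, with r = 0.46 over 7181 non-efferocytic cells and r = 0.29 over 6151 efferocytic cells, while the median over pairs was 0.04 and 0.02. In non-efferocytic cells of Experiment 2 the same pair had r = 0.15 over 10007 cells, and the highest was that of Jund and Atf3 at 0.20. In efferocytic cells of Experiment 2 the highest of 300 pairs was 0.11.

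The test rests on 2 libraries per group. Without either non-efferocytic library no gene of the 38 was called by edgeR (15 and 27 at an unadjusted p under 0.05, against 21.1% and 24.9% of genes, without that of Experiment 1 and 2), with 2 and 0 genes called in the whole table, and without the efferocytic library of Experiment 1 or 2 there were 14 and 7 lower, against 8.86% and 4.04% of genes. Fits without a library had no block, so that differences in level between the experiments entered their fold changes. Leaving out 1 library moved the log2 fold change of 8 of the 26 genes by more than 1.5 times in fold: Fos, Fosb and Dusp1, which crossed 0, and Egr1, Egr3, Ier3, Btg2 and Nfkbiz, which did not. Without the non-efferocytic library of Experiment 1 it was -1.02 for Nfkbiz and -1.40 for Ier3, and without that of Experiment 2 it was -2.83 and -3.00. Without the efferocytic library of Experiment 1 it was -2.99 for Nfkbiz, -3.41 for Egr1, -3.42 for Egr3 and -2.49 for Btg2, and without that of Experiment 2 it was -1.88 for Egr1 and -1.15 for Btg2. Without the block 11 were lower, against 7.74% of genes tested: Egr1, Egr3, Ier3, Zfp36l2, Nfkb1, Nfkb2, Relb, Rel, Nfkbie, Birc3 and Socs3.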

How the data were processed

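Sorted BM macrophages were profiled in 4 single-cell RNA libraries. The deposited files hold UMI counts for each gene in each barcode, which Cell Ranger made from reads mapped to mm10, not normalized. Per the labels and the file headers of Experiment 1 the version was 3.0.0, and per the file headers of Experiment 2 it was 3.1.0.

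A barcode counted as a cell when it had 200 or more genes, 1000 or more UMIs and no more than 10% of them mitochondrial. Doublets were not removed (without the top 5% of cells by UMIs, 26 genes were lower, against 17.7% of genes tested). UMIs were summed per library and tested with edgeR 4.0.16 in R 4.3.3 (quasi-likelihood, TMM, filterByExpr) with the experiment as a block. P-values were adjusted (Benjamini-Hochberg) over the 13869 genes tested, and the threshold was 0.05. SE is the size of the log2 fold change over the square root of F. The replicate block was used because the study compared groups within each experiment, and the libraries of an experiment deviated together from their group means (r = 0.80 over 7097 genes, which are not independent). DESeq2 1.42.0, 2 other scalings, 2 gene filters, 12 choices of cells or UMIs and leaving out each library were alternatives. The fit was tested on simulated counts.

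The 38 genes, the lists and the tests were chosen with earlier results of these data known. All 38 are named, and of each other list the 3 genes with the largest log2 fold change of those that were called and averaged 1 CPM or more, except marker genes, which are given by list, and genes of the MAP kinase cascade, of which not all are reported here and which are given as a count. Promoter sequences are from RefSeq (GRCm38.p6, the first window listed per gene), positions and 3′ ends from GENCODE M21. Intervals of ratios within an experiment are normal intervals of log counts and cover counting error only.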

Additional observations from a re-analysis of the deposited data

Results flagged for a closer look

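In 5 of the 38 genes the log2 ratio of CPM, efferocytic over non-efferocytic, had opposite signs in the experiments. With 1 library per group in each experiment, the difference between the experiments was not tested, and the 95% intervals cover counting error only. Jun had -0.081 (interval -0.12 to -0.05) in Experiment 1 and 0.71 (0.68 to 0.74) in Experiment 2. Dusp2 had -0.97 (-1.20 to -0.74) and 0.44 (0.26 to 0.63), and Dusp6 had -0.51 (-0.58 to -0.43) and 1.15 (1.08 to 1.23). Nfkbib had 0.0078 (-0.07 to 0.08) and -0.029 (-0.09 to 0.03), where both intervals span 0. Tnfaip3 had -0.66 (-0.75 to -0.57) and 0.055 (-0.03 to 0.14), where that of Experiment 2 spans 0. None of the 5 was called in the comparison of the groups.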

How the results depend on the processing

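The count of 26 lower and 0 higher genes moved with the scaling, the block and the libraries used. Lower were 11 without the replicate block, 11 per cell and 5 with 10% of UMIs removed as free RNA, a share above the limits of 0.47% to 3.45% of the libraries (25 were lower with 0.5% removed, which is above the lowest of these limits), and leaving out 1 library gave 0 to 14. Without a library the fits had no block, and the group with 1 library was assumed to vary like the other. Higher were 4 per cell, and 1 (Jun) with DESeq2, without a filter on low counts, with at most 5% mitochondrial UMIs and in cells thinned to 5000 UMIs. Under the other alternatives 24 to 30 were lower and 0 higher. The 24 were of 30 genes tested with a mean of at least 10 CPM, against 21.9% of all genes there, and the 30 came with library totals, where 26.7% of all genes were lower and the median of all genes was -0.12.

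The per cell scale moved the log2 fold change of each of the 38 genes up by 0.59 to 0.63 and the median of all genes from -0.02 to 0.60, so that 15 of the 34 genes under 0 turned sign, against 68.5% of the 7168 genes under 0 in the whole table: Fosl2 0.13, Jund 0.24, Atf3 0.35, Egr2 0.38, Klf2 0.091, Klf6 0.34, Ier5 0.25, Zfp36l2 0.23, Dusp2 0.48, Nfkb1 0.29, Rela 0.45, Rel 0.063, Tnfaip3 0.42, Tnf 0.34 and Traf1 0.40. None of these 15 passed the threshold per cell. With library totals Nfkbib was -0.011 and Tnfaip2 -0.042, with a mean of at least 10 CPM Tnfaip2 was -0.030, and in cells of 10000 to 20000 UMIs Nfkbib was -0.18. Leaving out 1 library gave ranges across 0 of -3.18 to 0.018 for Fos, -3.71 to 0.37 for Fosb, -0.55 to 0.018 for Atf3, -0.48 to 0.023 for Egr2, -0.59 to 0.069 for Klf6, -2.88 to 0.72 for Dusp1, -0.61 to 0.28 for Dusp2, -0.15 to 1.05 for Dusp6, -0.43 to 0.050 for Tnfaip3 and -0.55 to 0.00131 for Tnf. The causes of the other moves were not tested. With DESeq2, beside 14.2% of all genes higher and 10.2% lower, 2 of 14 MAP kinase feedback genes were higher and 0 lower, 0 and 1 of 15 mRNA decay partners, and 1 and 3 of 18 SOCS and STAT3 genes. Without the replicate block, beside 9.27% higher and 7.74% lower, 0 of 30 other immediate-early genes were higher and 5 lower, 0 and 2 of 14 NF-kB feedback genes, 3 and 6 of 22 NF-kB targets, and 0 and 4 of 26 IKK and adaptor genes. In the same fit 1 of 14 MAP kinase feedback genes was higher and 1 lower. The counts were 0 and 0 of 15 mRNA decay partners, and 0 and 3 of 18 SOCS and STAT3 genes. The UMIs per cell scale takes the number of barcodes kept as the number of cells. That number was above the study's own for each library, most so for the non-efferocytic library of Experiment 2.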
